A study of Homo sapiens with 16 samples.

Results

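Keratins are the intermediate filament proteins of epithelial cells. A filament forms from pairs of a type I and a type II keratin, and simple epithelia such as the luminal layer of the breast are known for the pair KRT18 and KRT8 with the type I keratin KRT19, whereas the basal layer is known for KRT5 and KRT14. The 10 genes described here were chosen by symbol: the type II keratins KRT8, KRT7, KRT80, KRT81 and KRT86 and the type I keratins KRT18, KRT19, KRT15, KRT23 and KRT10. They are 10 of the 78894 gene rows of the deposited table, and 9 of them passed the filter on low values, which kept genes at 1 CPM (counts per 1000000 assigned reads) or more in 4 or more libraries. KRT81 was the 1 that did not.

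The cells were T47D, a line of human luminal breast cancer that carries the estrogen receptor. FAH, fumarylacetoacetate hydrolase, is the last enzyme of tyrosine breakdown, and abemaciclib inhibits the cell cycle kinases CDK4 and CDK6. The 4 groups were FAH knockout cells given abemaciclib, control guide cells given abemaciclib, FAH knockout cells given vehicle (DMSO in the sample titles) and control guide cells given vehicle, with 4 libraries each and 16 in all. Abemaciclib was used at 500 nM, with libraries made at day 3. The sources used here do not give the guide sequences or say whether the knockout cells were 1 clone or a pool. So loss of FAH cannot be told apart here from other differences between the knockout and control cells. The series title places the work in resistance to inhibitors of these kinases.

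The labels do not say whether the 4 libraries of each group were grown apart, so a p-value here stands for the spread among these libraries alone, and that spread may be technical. Each library held an estimated 9915776 to 11963093 assigned reads, so that 1 read was worth between 0.0836 and 0.101 CPM. For this estimate the most common CPM value above 0 in a library was taken as 1 read. Within groups, log2(CPM + 1) correlated across genes between 0.994 and 0.996. FAH itself averaged 5.76 ± 0.744 CPM in knockout cells and 24.0 ± 1.35 CPM in control cells under abemaciclib, and 6.65 ± 0.323 CPM in knockout cells and 26.5 ± 1.57 CPM in control cells under vehicle (SD, n = 4 each). The groups did not overlap in either treatment (exact two-sided permutation test, p = 0.0286, the smallest that 70 assignments of 4 against 4 allow). Over the 16 libraries the 13 luminal markers, which include KRT8, KRT18 and KRT19, averaged from 4.36 CPM for TFF1 to 4358 CPM for KRT8, with EPCAM, CDH1 and GATA3 at 193, 403 and 1421 CPM. Of the 15 basal and myoepithelial markers 11 averaged under 1 CPM, among them KRT5, KRT14 and TP63 at 0.00623, 0.0223 and 0.220 CPM, while ACTA2 was at 29.5, EGFR at 14.5 and MYLK at 4.29 CPM. Of the 13 mesenchymal markers 7 averaged under 1 CPM, among them ZEB1 at 0.291 CPM, while COL1A1 was at 51.9, FN1 at 15.5 and VIM at 15.1 CPM. All 4 endothelial markers averaged under 1 CPM.

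KRT8 and KRT18 have many processed pseudogenes, and KRT81 and KRT86 are near copies of each other, so reads from these genes can match more than 1 place. In the coding sequence KRT86 and KRT81 were 93.7% identical over 1454 aligned bases. KRT8 was 95.8% identical to its pseudogene KRT8P33, and KRT18 was 95.9% identical to its pseudogene KRT18P11. The pair of 90-base stretches below, of KRT18 and KRT18P11, shows how little separates a parent transcript from a pseudogene. It is the stretch, first from the 5′ end, with the median number of mismatches among the gap-free stretches of that alignment, and here it has 3. It spans coding bases 4 to 93 of KRT18 and bases 1 to 90 of the KRT18P11 transcript, on chromosome X. Sequences are 5′ to 3′ from the GENCODE v29 transcripts (GRCh38), and capitals mark the bases that differ.
KRT18: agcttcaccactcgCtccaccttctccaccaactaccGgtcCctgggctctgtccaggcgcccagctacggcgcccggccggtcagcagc
KRT18P11: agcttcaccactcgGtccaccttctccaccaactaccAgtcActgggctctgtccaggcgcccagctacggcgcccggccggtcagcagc

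Among all 50-base windows of a representative transcript, 41.3% for KRT8 and 47.6% for KRT18 also occurred, on either strand, in a transcript of another gene. The shares were 44.6% for KRT81 and 40.5% for KRT86, 10.8% for KRT7, 4.95% for KRT23 and 1.79% for KRT19. They were 0.434% for KRT10, 0.420% for KRT80 and 0.328% for KRT15. Because both strands were matched, these shares are not of near copies alone. Of the 720 shared windows of KRT18, 326 were found in KRT8, its neighbour on the opposite strand. Of the 184 of KRT7, 177 were found in the antisense gene KRT7-AS, and the 96 of KRT23 were found in an antisense gene. Of the 677 of KRT8, 395 were found in the pseudogene KRT8P3 and 128 in KRT8P33. The genes also differed in how often their values were whole numbers of reads. A value made of whole reads is a whole multiple of what 1 read is worth, within 0.02 reads here, and KRT8 and KRT18 were whole in 1 of 16 libraries each and KRT19 in 4. KRT7 was whole in 9 libraries, KRT80 in 10, KRT81 in 11, KRT86 in 12, KRT15 in 14, KRT23 in 15 and KRT10 in 16. The sources used here do not say how reads with several matches were counted, so the levels of KRT8, KRT18, KRT81 and KRT86 are uncertain by what they share. KRT8 and KRT18 also lie next to each other on chromosome 12 (GRCh38, GENCODE v29), KRT8 at chr12:52897187-52949954 on the minus strand and KRT18 at chr12:52948871-52952901 on the plus strand. Their annotated exons share 525 bases, 7.63% of those of KRT8 and 16.3% of those of KRT18. Reads from there cannot be told apart unless strand was used in counting, which is not stated.

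In FAH knockout cells the simple epithelial pair KRT8 and KRT18 stood at 1.81 to 1.93 times its level in control cells, while the differences with abemaciclib were 0.33 and 0.32 in log2 for KRT8 and 0.20 and 0.11 for KRT18 in knockout and control cells. Abemaciclib raised KRT15, KRT80, KRT7 and KRT86, by 0.70 to 1.35 in knockout and 1.07 to 1.77 in control cells, and it lowered KRT10. The plot of CPM by library shows all 10 genes.

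**Figure D1:**
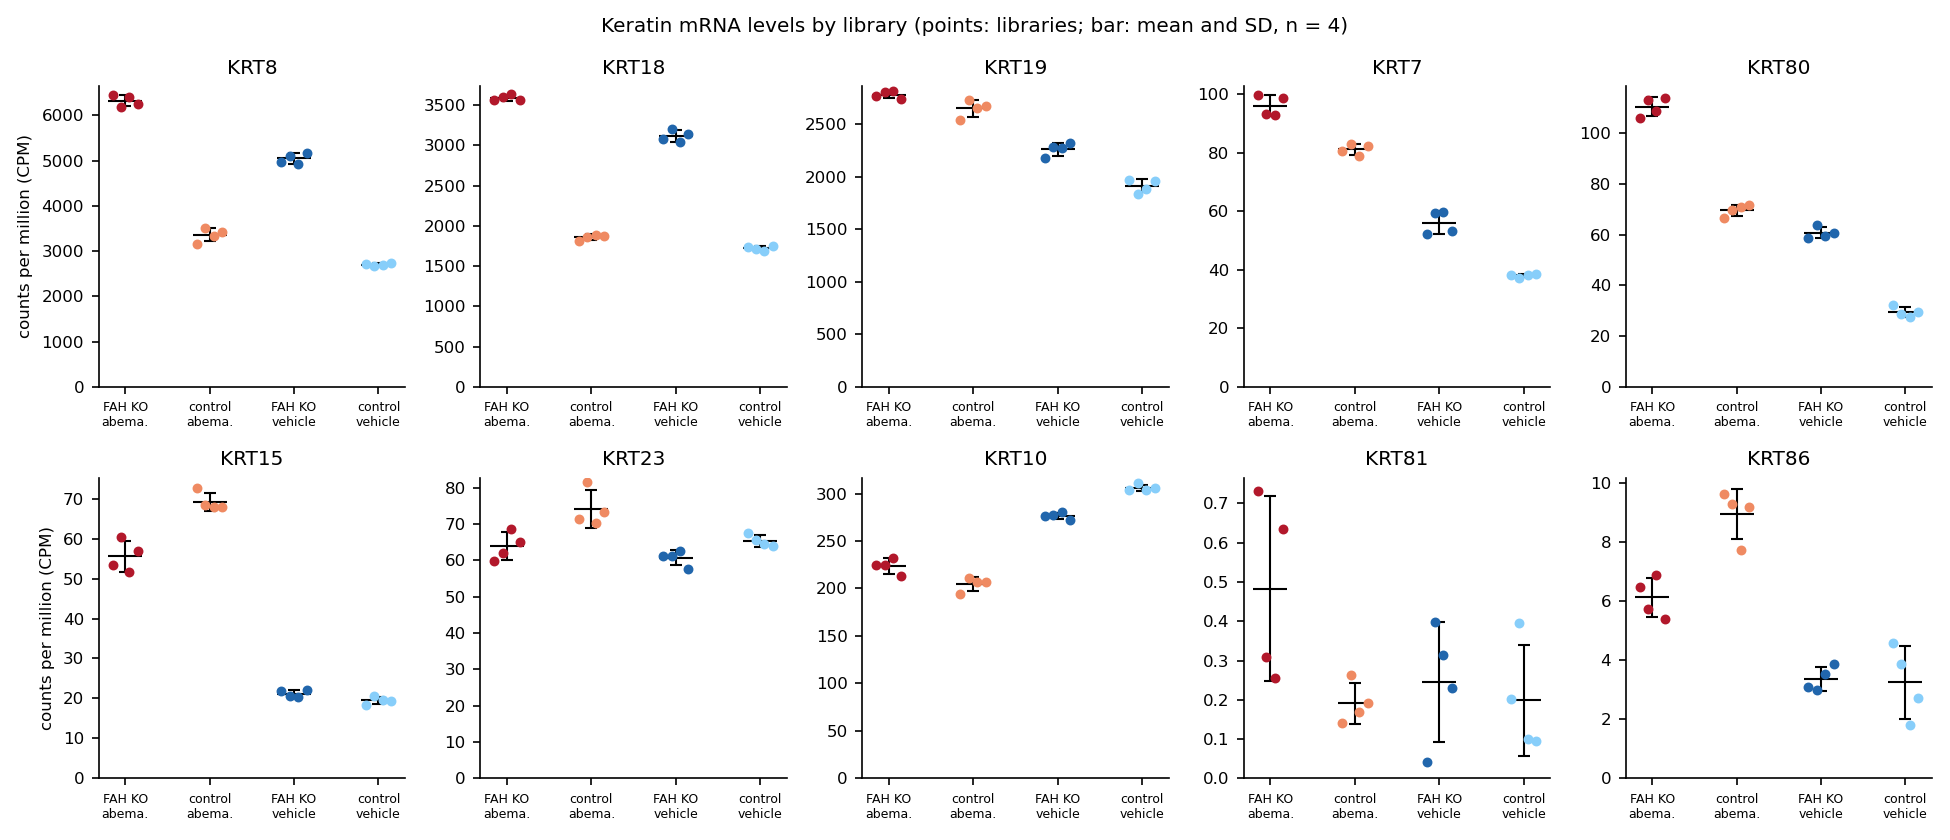
CPM of the 10 keratins in each library (points), with the mean and SD of the 4 libraries of a group, on axes that start at 0. KRT8 and KRT18 are higher in both knockout groups than in both control groups, KRT15 is higher in both abemaciclib groups than in both vehicle groups, and KRT10 is lower in both.

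KRT8, the type II keratin of simple epithelia, had 6459, 6182, 6396 and 6255 CPM in knockout libraries and 3165, 3514, 3339 and 3433 CPM in control libraries under abemaciclib. Under vehicle it had 4974, 5109, 4931 and 5176 CPM in knockout libraries and 2715, 2664, 2695 and 2727 CPM in control libraries. All 8 knockout libraries lay above all 8 control libraries, and within each genotype the abemaciclib libraries lay above the vehicle ones. The knockout mean was 1.87 times the control mean under vehicle and 1.88 times under abemaciclib. In differences of log2(CPM + 1), from 1 limma fit over all 16 libraries with p-values adjusted over 16218 genes, knockout was above control by 0.90 (SE 0.0278, adjusted p = 5.3e-23) under vehicle and by 0.91 (SE 0.0278, adjusted p = 7.6e-23) under abemaciclib. Abemaciclib was above vehicle by 0.33 (SE 0.0278, adjusted p = 1.2e-11) in knockout cells and by 0.32 (SE 0.0278, adjusted p = 1.3e-11) in control cells. The change with the drug did not differ detectably between genotypes (interaction 0.01, SE 0.0393, adjusted p = 0.922). That last value depended on the scaling: after quantile normalization the interaction was -0.37 (adjusted p = 2.0e-08) and the rise with abemaciclib in knockout cells 0.09 (adjusted p = 0.00920).

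KRT18, the type I partner of KRT8, had 3561, 3600.4, 3642 and 3560.2 CPM in knockout libraries and 1808, 1868, 1882 and 1878 CPM in control libraries under abemaciclib. Under vehicle the knockout libraries had 3076, 3209, 3049 and 3146 CPM and the control libraries 1740.2, 1719, 1694 and 1746 CPM. Again no knockout library fell among the control libraries. Knockout cells were above control cells by 0.85 (SE 0.0247, adjusted p = 9.0e-24) on the log2 scale under vehicle and by 0.95 (SE 0.0247, adjusted p = 6.4e-25) under abemaciclib. The rise with abemaciclib was small in both genotypes, 0.20 (SE 0.0247, adjusted p = 3.2e-08) in knockout cells and 0.11 (SE 0.0247, adjusted p = 0.000412) in control cells, with no overlap of the groups. Its interaction of 0.10 (SE 0.0349, adjusted p = 0.0757) missed the threshold, and passed it at 0.11 (adjusted p = 0.0499) without knockout vehicle replicate 2.

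The balance between KRT8 and its type I partners was compared within libraries. Within libraries, log2(CPM + 1) of KRT8 minus that of KRT18 was 0.82 ± 0.0324 in knockout and 0.85 ± 0.0465 in control cells under abemaciclib, and 0.69 ± 0.0194 in knockout and 0.65 ± 0.0159 in control cells under vehicle (SD, n = 4 each). Every abemaciclib library lay above every vehicle library. The difference of KRT8 minus KRT19 split by genotype instead, at 1.19 ± 0.0346 in knockout and 0.34 ± 0.0247 in control cells under abemaciclib and 1.16 ± 0.0323 in knockout and 0.50 ± 0.0328 in control cells under vehicle. These differences are not per length, so only their change between groups is read. The 10 keratins together took 1.32 ± 0.0145% of reads in knockout and 0.838 ± 0.0267% in control cells under abemaciclib, and 1.09 ± 0.0217% in knockout and 0.680 ± 0.0105% in control cells under vehicle. KRT8, KRT18 and KRT19 made up between 93.0% and 95.9% of that sum in single libraries. The type II members supplied 49.3 ± 0.571% of the summed CPM in knockout and 42.0 ± 0.523% in control cells under abemaciclib, and 47.4 ± 0.284% in knockout and 40.8 ± 0.248% in control cells under vehicle. In bulk RNA, fewer cells of a type and less RNA per cell cannot be told apart.

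**Figure D2:**
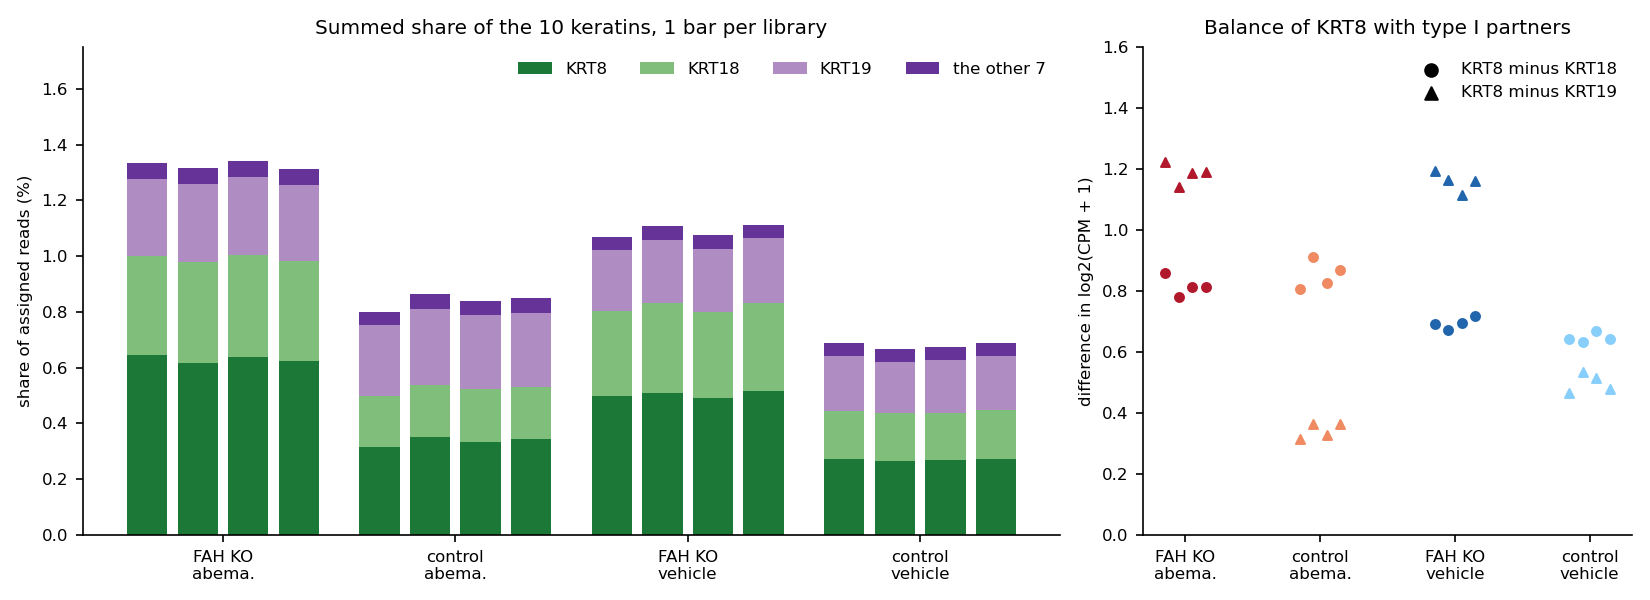
Left, the share of assigned reads (%) taken by KRT8, KRT18, KRT19 and the other 7 keratins, 1 stacked bar per library. Right, log2(CPM + 1) of KRT8 minus that of KRT18 (circles) or of KRT19 (triangles), 1 point per library: circles are higher under abemaciclib in both genotypes, triangles are higher in knockout cells under both treatments.

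KRT19, a small type I keratin that lacks most of the tail domain, had 2763, 2804, 2811 and 2738 CPM in knockout libraries and 2542, 2729, 2657 and 2667 CPM in control libraries under abemaciclib. Under vehicle it had 2175, 2277, 2276 and 2315 CPM in knockout libraries and 1968, 1838, 1886 and 1958 CPM in control libraries. Knockout libraries lay above control libraries in both treatments, with a narrow gap under abemaciclib (2738 against 2729 CPM) and a wider one under vehicle (2175 against 1968 CPM). The difference was 0.24 (SE 0.0277, adjusted p = 1.4e-08) under vehicle. Under abemaciclib it was 0.07 (SE 0.0277, adjusted p = 0.0555) and was not called, although it passed without control abemaciclib replicate 2 (adjusted p = 0.0305) or knockout vehicle replicate 1 (adjusted p = 0.0473), and after quantile normalization (adjusted p = 0.0137). KRT19 rose with abemaciclib by 0.30 (SE 0.0277, adjusted p = 8.3e-11) in knockout cells and by 0.47 (SE 0.0277, adjusted p = 4.7e-16) in control cells. The rise was smaller in knockout cells (interaction -0.17, SE 0.0391, adjusted p = 0.00284), a call that was lost after median-of-ratios rescaling (-0.15, adjusted p = 0.0525) and without the mean-variance trend (adjusted p = 0.0744).

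KRT7 is a type II keratin of glandular and ductal epithelia. It had 99.6, 93.2, 92.9 and 98.8 CPM in knockout libraries and 80.5, 83.0, 78.9 and 82.4 CPM in control libraries under abemaciclib, and 52.3, 59.4, 59.6 and 53.3 CPM in knockout libraries and 38.4, 37.2, 38.3 and 38.5 CPM in control libraries under vehicle. The 4 groups did not overlap. KRT7 was higher in knockout than in control cells by 0.55 (SE 0.0457, adjusted p = 1.3e-11) under vehicle and by 0.24 (SE 0.0457, adjusted p = 0.000102) under abemaciclib. Abemaciclib raised it by 0.77 (SE 0.0457, adjusted p = 8.8e-16) in knockout cells and by 1.07 (SE 0.0457, adjusted p = 6.8e-20) in control cells, and the difference between the 2 rises passed the test (interaction -0.31, SE 0.0646, adjusted p = 0.00131). The antisense gene KRT7-AS, which shares 282 exonic bases with KRT7 at chr12:52232520-52252186, averaged 1.51 ± 0.295 CPM in knockout and 0.979 ± 0.366 CPM in control cells under abemaciclib, and 1.18 ± 0.494 CPM in knockout and 0.837 ± 0.304 CPM in control cells under vehicle. It was not called in any of the 5 comparisons, with adjusted p-values from 0.0995 up, although knockout against control under abemaciclib passed without control abemaciclib replicate 3.

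KRT80, a type II keratin found in many epithelia, had 106, 113, 109 and 114 CPM in knockout libraries and 66.6, 69.7, 70.8 and 71.5 CPM in control libraries under abemaciclib. Under vehicle the values were 58.8, 63.6, 59.3 and 60.8 CPM in knockout libraries and 32.1, 28.7, 27.5 and 29.4 CPM in control libraries. It was higher in knockout cells and with abemaciclib, and the groups did not overlap. Its mean in knockout cells with abemaciclib was 3.75 times that in control cells with vehicle. KRT80 was higher in knockout than in control cells by 1.02 (SE 0.0465, adjusted p = 2.5e-18) under vehicle and by 0.66 (SE 0.0465, adjusted p = 2.8e-13) under abemaciclib. Abemaciclib raised it by 0.85 (SE 0.0465, adjusted p = 7.4e-17) in knockout cells and by 1.22 (SE 0.0465, adjusted p = 3.3e-21) in control cells. Together the 2 factors gave less than the sum of their separate log2 differences (interaction -0.36, SE 0.0658, adjusted p = 0.000222).

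KRT15, a type I keratin known from basal and progenitor cells of stratified epithelia, had 53.3, 60.3, 51.6 and 57.0 CPM in knockout libraries and 72.6, 68.4, 67.8 and 67.8 CPM in control libraries under abemaciclib. Under vehicle it had 21.8, 20.5, 20.4 and 22.0 CPM in knockout libraries and 18.5, 20.7, 19.6 and 19.4 CPM in control libraries. It had the largest log2 difference between abemaciclib and vehicle of the 9 tested keratins in both genotypes, with means 2.62 times the vehicle mean in knockout cells and 3.54 times in control cells. The differences were 1.35 (SE 0.0541, adjusted p = 1.4e-20) in knockout cells and 1.77 (SE 0.0541, adjusted p = 5.5e-24) in control cells, and they differed from each other (interaction -0.42, SE 0.0765, adjusted p = 0.000202). Knockout cells were below control cells under abemaciclib, with a difference of -0.31 (SE 0.0541, adjusted p = 2.7e-05) and no overlap. Under vehicle the knockout and control libraries overlapped and the difference of 0.11 (SE 0.0541, adjusted p = 0.106) was not called. KRT15 is at chr17:41513743-41522529, beside KRT19 at chr17:41523617-41528308, both on the minus strand.

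KRT23, a type I keratin of epithelia, had the smallest ratio of highest to lowest group mean of the 9 tested members. It had 59.7, 62.0, 68.5 and 65.2 CPM in knockout libraries and 71.3, 81.6, 70.2 and 73.2 CPM in control libraries under abemaciclib, and 61.2, 61.1, 62.7 and 57.8 CPM in knockout libraries and 67.6, 65.7, 64.5 and 63.9 CPM in control libraries under vehicle. Under abemaciclib it was lower in knockout than in control cells, with a difference of -0.21 (SE 0.0484, adjusted p = 0.000985) on the log2 scale. The difference under vehicle, -0.11 (SE 0.0484, adjusted p = 0.0836), was not called, but passed after median-of-ratios rescaling (-0.17, adjusted p = 0.00601) and quantile normalization (-0.16, adjusted p = 0.0118). Abemaciclib raised it in control cells by 0.18 (SE 0.0484, adjusted p = 0.00287). In knockout cells the abemaciclib and vehicle libraries overlapped and the difference of 0.07 (SE 0.0484, adjusted p = 0.263) was not called, and passed at 0.16 under both of those scalings (adjusted p = 0.00744 and 0.00931). The interaction was -0.10 (SE 0.0685, adjusted p = 0.388).

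KRT10 is the type I keratin of differentiating epidermis, and it was the 1 tested member that fell with abemaciclib. It had 224, 225, 232 and 213 CPM in knockout libraries and 194, 211, 207 and 207 CPM in control libraries under abemaciclib, and 276, 277, 280.3 and 272 CPM in knockout libraries and 304, 311, 303 and 306 CPM in control libraries under vehicle. The abemaciclib and vehicle groups did not overlap, with differences of -0.30 (SE 0.0325, adjusted p = 2.1e-09) in knockout cells and -0.58 (SE 0.0325, adjusted p = 1.5e-16) in control cells. The fall was smaller in knockout cells (interaction 0.27, SE 0.0460, adjusted p = 8.2e-05). Knockout was below control under vehicle, with a difference of -0.15 (SE 0.0325, adjusted p = 0.000543). Under abemaciclib it was above by 0.13 (SE 0.0325, adjusted p = 0.00291), a call that was lost after median-of-ratios rescaling (0.08, adjusted p = 0.0919) and quantile normalization (0.08, adjusted p = 0.0522). KRT10-AS1 on the opposite strand, with 56 shared exonic bases, averaged 15.99 ± 2.23 CPM in knockout and 15.9 ± 1.38 CPM in control cells under abemaciclib, and 17.3 ± 1.13 CPM in knockout and 19.2 ± 1.83 CPM in control cells under vehicle. It fell with abemaciclib in control cells (-0.26, SE 0.0845, adjusted p = 0.0111), a call lost under both of those scalings, with low genes kept in and without control abemaciclib replicate 3 or control vehicle replicate 1 (adjusted p up to 0.0889).

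KRT86 and KRT81 are hair keratins of type II. KRT86 had 6.49, 5.76, 6.88 and 5.40 CPM in knockout libraries and 9.62, 9.29, 7.73 and 9.20 CPM in control libraries under abemaciclib, and 3.09, 2.99, 3.54 and 3.88 CPM in knockout libraries and 4.59, 3.87, 1.81 and 2.73 CPM in control libraries under vehicle. Every abemaciclib library lay above every vehicle library. The rise was 0.70 (SE 0.139, adjusted p = 0.000106) in knockout cells and 1.27 (SE 0.139, adjusted p = 1.7e-09) in control cells, and the interaction of -0.57 (SE 0.196, adjusted p = 0.0580) missed the threshold. That interaction passed without control vehicle replicate 1 (adjusted p = 0.0107), control vehicle replicate 2 (adjusted p = 0.0347) or control abemaciclib replicate 3 (adjusted p = 0.0415), and with a pseudocount of 5 (-0.36, adjusted p = 0.0266). Under abemaciclib KRT86 was lower in knockout than in control cells, with a difference of -0.48 (SE 0.139, adjusted p = 0.00763), not called when low genes were kept in (adjusted p = 0.0711). Under vehicle the groups overlapped, with 0.09 (SE 0.139, adjusted p = 0.668), and the sign turned without control vehicle replicate 3 (-0.10).

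KRT81 was close to the level of single reads, at 0.732, 0.310, 0.255 and 0.636 CPM in knockout libraries and 0.140, 0.263, 0.170 and 0.193 CPM in control libraries under abemaciclib, and 0.0418, 0.399, 0.313 and 0.231 CPM in knockout libraries and 0.202, 0.397, 0.101 and 0.0943 CPM in control libraries under vehicle. In the fit with low genes kept in, it was not called in any of the 5 comparisons (adjusted p from 0.139 up), so no difference was detectable at this depth. KRT81 is at chr12:52285913-52291534 on the minus strand, inside the span of KRT86 at chr12:52249300-52309163 on the plus strand, with 0 shared exonic bases but 721 shared 50-base windows. With both rows added into 1 feature, the difference of knockout from control under abemaciclib was -0.41 (adjusted p = 0.0227), and the rise with abemaciclib was 0.72 in knockout cells and 1.24 in control cells.

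**Figure D3:**
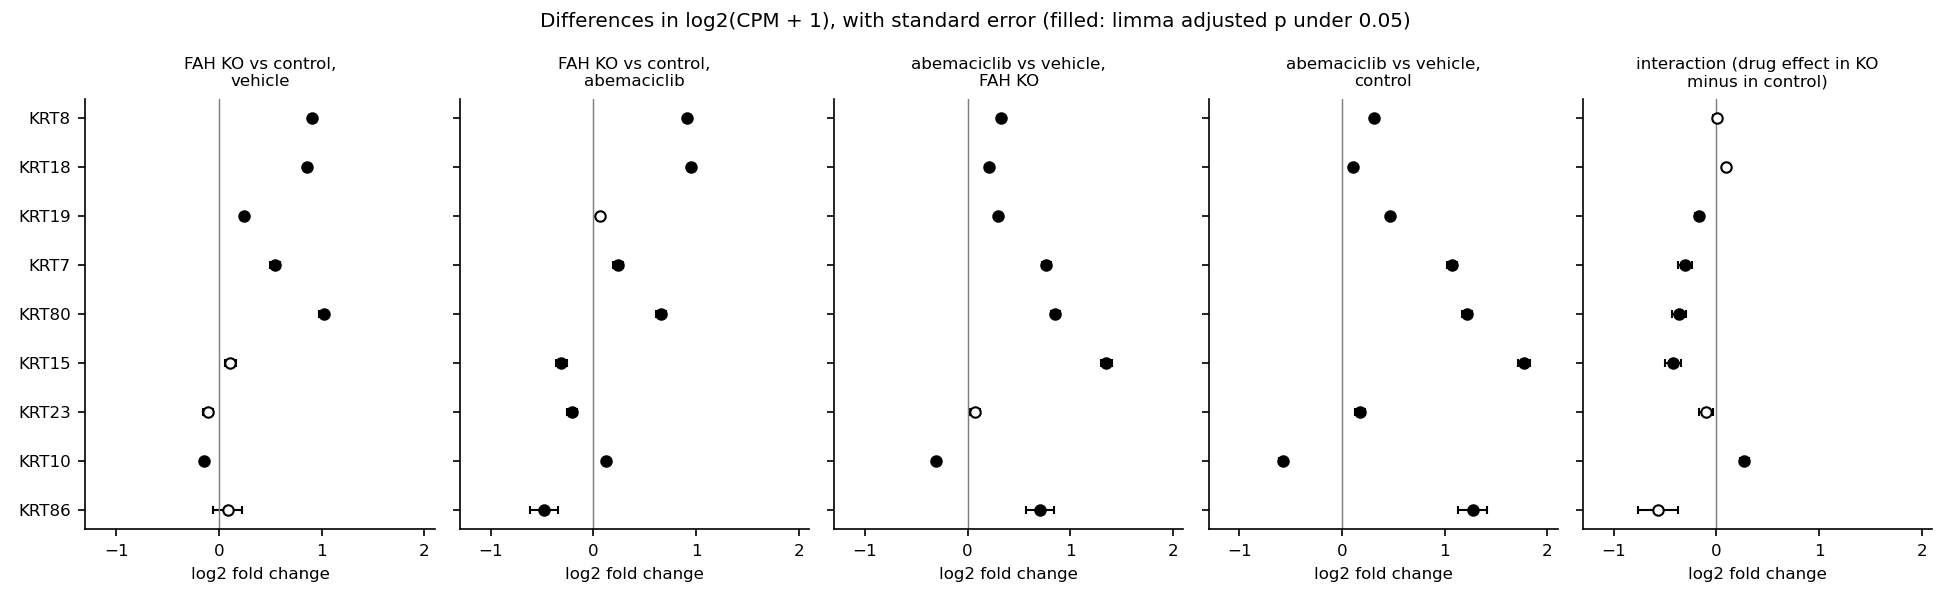
Difference in log2(CPM + 1) for the 9 tested keratins in the 5 comparisons (points), with standard errors (bars) and filled points where the limma adjusted p was under 0.05. KRT8, KRT18 and KRT80 lie farthest to the right for knockout over control, and KRT15, KRT86, KRT80 and KRT7 for abemaciclib over vehicle.

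Over the 9 tested keratins, knockout against control under vehicle called 5 higher (KRT8, KRT18, KRT19, KRT7 and KRT80) and 1 lower (KRT10), where 24.6% of all tested genes were called higher and 13.1% lower. The median difference was 0.24 in log2 among the 9 and 0.06 among all tested genes. Under abemaciclib 5 were higher (KRT8, KRT18, KRT7, KRT80 and KRT10) and 3 lower (KRT15, KRT23 and KRT86), against 18.6% and 11.3% of all genes, with medians of 0.13 and 0.04. Abemaciclib against vehicle called 7 higher and 1 lower in knockout cells, against 11% and 27.4% of all genes, with medians of 0.33 and -0.07. In control cells it called 8 higher and 1 lower, against 19.6% and 31.1% of all genes, with medians of 0.47 and -0.05. The interaction called 1 higher and 4 lower, against 4.68% and 6.16% of all genes, with medians of -0.17 and -0.03. Each knockout comparison shares its libraries with a drug comparison, so these counts are not independent of each other.

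The scaling of the libraries moved the split of calls over all genes. Of all calls, 65.3% were higher for knockout under vehicle as deposited and 48.6% after median-of-ratios rescaling, and under abemaciclib 62.2% and 47.8%. For abemaciclib against vehicle 28.6% and 53.1% of calls were higher in knockout cells, and 38.7% and 51.1% in control cells. Quantile normalization moved the median over all genes for abemaciclib in knockout cells by the most, to 0.03. Set against the median of all genes in the same scaling, the differences for abemaciclib in knockout cells were 1.42, 1.42 and 1.42 for KRT15 as deposited, after rescaling and after quantile normalization, 0.92, 0.93 and 0.92 for KRT80, 0.83, 0.85 and 0.83 for KRT7, and 0.77, 0.76 and 0.81 for KRT86. They were 0.37, 0.38 and 0.22 for KRT19, 0.27, 0.28 and 0.12 for KRT18, and 0.39, 0.40 and 0.05 for KRT8. KRT10 was at -0.24, -0.23 and -0.29, below the median of all genes in each scaling.

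The summed pseudogene rows of KRT8 and KRT18 were also larger in knockout cells. The 51 pseudogene rows of KRT8 summed to 26.9 ± 2.40 CPM in knockout and 16.2 ± 1.29 CPM in control cells under abemaciclib, and to 24.9 ± 1.40 CPM in knockout and 14.9 ± 1.07 CPM in control cells under vehicle. These sums were between 0.384% and 0.580% of KRT8 plus its pseudogenes in single libraries. For the 65 rows of KRT18 the sums were 9.04 ± 0.995 CPM in knockout and 5.44 ± 0.210 CPM in control cells under abemaciclib, and 8.48 ± 0.482 CPM in knockout and 5.23 ± 0.485 CPM in control cells under vehicle. KRT8P3 was called higher in knockout cells by 0.67 under vehicle and 0.60 under abemaciclib, and KRT8P33 by 0.66 and 0.79. KRT18P11 was higher by 0.35 (SE 0.130, adjusted p = 0.0303) under vehicle and 0.44 (SE 0.130, adjusted p = 0.00995) under abemaciclib. The vehicle call was lost after either rescaling, with low genes kept in and without any 1 of 5 of its 8 libraries (knockout replicates 1, 2 and 3, control replicates 2 and 3), and the abemaciclib call without knockout abemaciclib replicate 3 (adjusted p up to 0.114 and 0.0617). KRT8P36 was called higher under abemaciclib (0.47, SE 0.167, adjusted p = 0.0322), and lost that call with low genes kept in, without the trend, and without knockout abemaciclib replicate 1, 3 or 4 or control abemaciclib replicate 1 or 3 (adjusted p up to 0.189). The other KRT18 row past the filter, KRT18P10, was higher by 0.35 (SE 0.127, adjusted p = 0.0297) under vehicle, a call lost after either rescaling, with low genes kept in and without knockout replicate 2, 3 or 4 or control replicate 2 or 4 (adjusted p up to 0.117), and by 0.47 (SE 0.127, adjusted p = 0.00500) under abemaciclib. The fourth KRT8 row past the filter, KRT8P2, is outside the rule for named genes and is given after its values were seen: knockout gave no call (0.33 under vehicle and 0.10 under abemaciclib). KRT8P2 rose with abemaciclib in control cells (0.52, SE 0.159, adjusted p = 0.00678), with overlapping libraries and a call lost with low genes kept in (adjusted p = 0.0579), and was called in knockout cells after quantile normalization but not as deposited (0.29). With a pseudocount of 5 the differences of these low rows were smaller, for KRT8P3 0.45 and 0.41 with knockout and for KRT8P33 0.42 and 0.52. Abemaciclib gave no call for the other 5 rows in either genotype, with differences between -0.02 and 0.19, except KRT8P33 in knockout cells after quantile normalization. Adding all pseudogene rows to their genes left the differences of knockout from control at 0.90 under vehicle and 0.91 under abemaciclib for KRT8, and at 0.85 and 0.95 for KRT18. KRT18P10 lies on chromosome Y, and 92 of the windows of KRT18 were also found in it. Whether these cells carry chromosome Y was not tested. Whether the pseudogene rows hold transcripts of the pseudogenes or reads of the parent genes was not tested either.

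**Figure D4:**
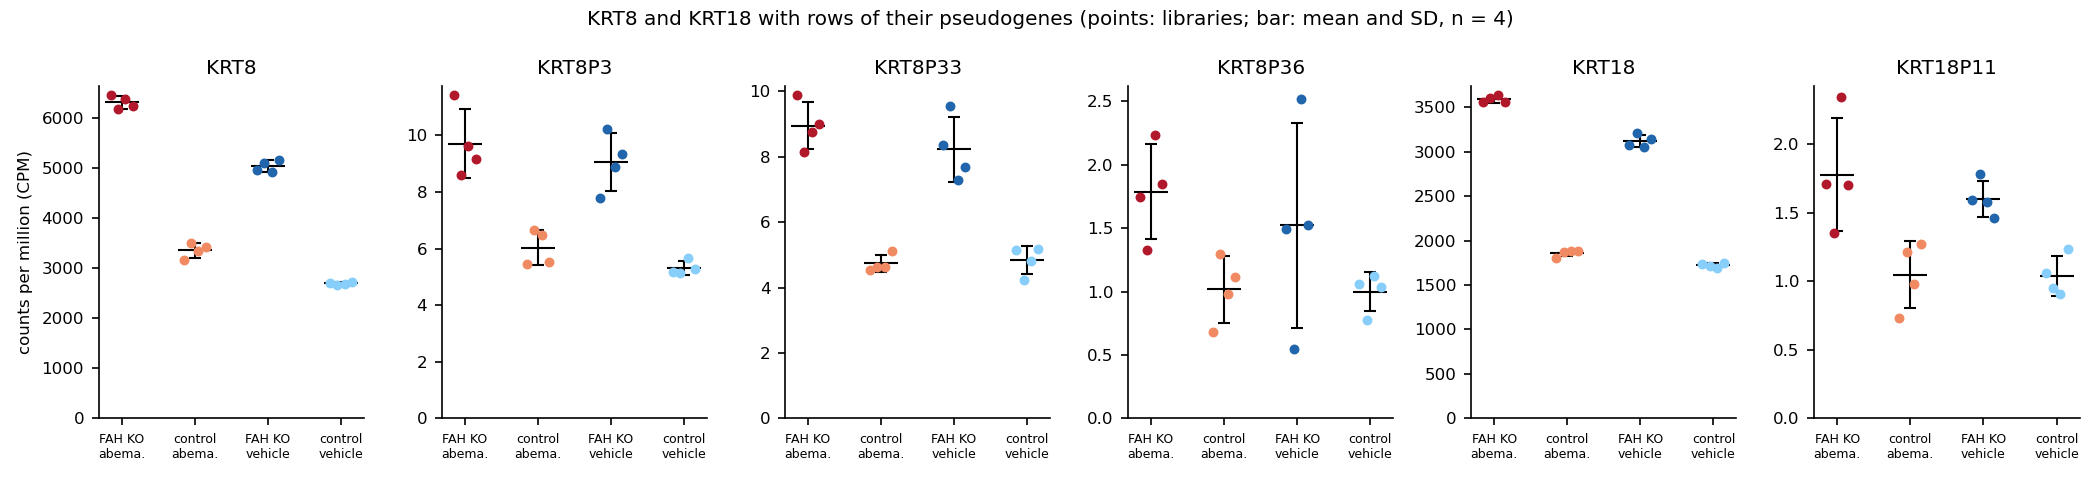
CPM of KRT8 and KRT18 and of 4 of their pseudogene rows in each library (points), with the mean and SD of the 4 libraries of a group. The pseudogene rows reach at most 11.4 CPM, and their knockout groups lie mostly above their control groups, as those of KRT8 and KRT18 do.

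Some genes had a pattern over the 16 libraries close to that of a keratin, as measured by the root mean square difference of log2(CPM + 1) after centring each gene. This is a description, and the groups give all genes that move with both factors a like pattern. KRT18 was the nearest protein-coding gene to KRT8, and KRT8 the nearest to KRT18 (0.0893). The rows of KRT8 and KRT18 may share reads, and whether that adds to their likeness was not tested. Next to KRT8 were SLC5A6 (0.107), a vitamin transporter, and TMEM265 (0.115), and next to KRT18 were HMGCS1 (0.106), an enzyme of cholesterol synthesis, and ZNF703 (0.109). SLC5A6 averaged 126 CPM in knockout and 71.4 CPM in control cells under abemaciclib, and 95.6 CPM in knockout and 49.8 CPM in control cells under vehicle. MAFK (0.0863), SAT1 (0.114) and SDC3 (0.115) were nearest to KRT7, and SAMD4A (0.129), SOX4 (0.141) and CACNG4 (0.147) to KRT80. For KRT15 the nearest were PIP (0.231), BCAS1 (0.241) and CLU (0.265), and for KRT86 CLU (0.235), NKAIN1 (0.240) and MAP6D1 (0.245). PIP, a secreted protein of breast and apocrine glands, averaged 1263 CPM in knockout and 2044 CPM in control cells under abemaciclib, and 752 CPM in knockout and 569 CPM in control cells under vehicle. KRT10 had NUDT5 (0.0383), POLR2H (0.0386) and UBB (0.0421) as its nearest genes, and it also varied over the narrowest range of these 7 keratins, 0.68 in log2 against 1.10 to 2.01.

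Other keratins were near or at 0. Of 45 further protein-coding keratin rows, 21 were at 0 in all libraries and 2, KRT13 and KRT83, passed the filter. KRT13, a type I keratin of stratified mucosa, averaged 0.269 ± 0.0897 CPM in knockout and 0.788 ± 0.234 CPM in control cells under vehicle and was called lower (-0.49, SE 0.161, adjusted p = 0.0160), a call lost without control vehicle replicate 1 and with low genes kept in (adjusted p up to 0.0847). It was not called in the other comparisons, although it passed for knockout against control under abemaciclib without control abemaciclib replicate 4, and for abemaciclib in knockout cells after quantile normalization. KRT83, a hair keratin, was not called in any, with adjusted p-values from 0.477 up. Markers of other cell types were summed beside the keratins, and their part in the results was not tested. The 15 basal and myoepithelial markers summed to 42.8 to 46.3 CPM in knockout and 50.7 to 54.7 CPM in control libraries under abemaciclib, and to 50.5 to 53.5 CPM in knockout and 57.6 to 62.8 CPM in control libraries under vehicle. The 13 mesenchymal markers summed to 97.8 to 112 CPM in knockout and 103 to 117 CPM in control libraries under abemaciclib, and to 92.0 to 102 CPM in knockout and 89.0 to 94.4 CPM in control libraries under vehicle. The 7 leukocyte markers summed to at most 7.02 CPM in any library and the 4 endothelial markers to at most 0.298 CPM. Knockout gave 6 higher and 7 lower of the 13 luminal markers under vehicle, and 5 and 7 under abemaciclib. Of all tested genes 24.6% were called higher and 13.1% lower under vehicle, and 18.6% and 11.3% under abemaciclib. The markers called higher include keratins described here: KRT8, KRT18 and KRT19 under vehicle, and KRT8 and KRT18 under abemaciclib. The markers called lower include none of them. Among those called lower, AGR2, a secretory pathway protein of luminal cells, had differences of -0.80 and -0.40 in log2. TFF1, an estrogen-regulated secreted peptide, had -0.69 and -0.73 (-0.39 and -0.42 with a pseudocount of 5). Among those called higher under vehicle, MUC1 had 0.47. Abemaciclib gave 7 higher and 2 lower of the 13 in each genotype, with KRT8, KRT18 and KRT19 among the 7 in both. Over all tested genes the drug called 11% higher and 27.4% lower in knockout cells, and 19.6% and 31.1% in control cells. After median-of-ratios rescaling, 9 luminal markers were higher and 1 lower in each genotype. Of all calls, 53.1% were then higher in knockout and 51.1% in control cells, in place of 28.6% and 38.7%.

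Genes whose products anchor or handle keratin filaments were followed as lists. Desmosomes join keratin filaments across cell borders, and plakins link the filaments to junctions. Of 23 such genes 16 were tested: for knockout against control 9 were higher and 0 lower under vehicle (median 0.16 against 0.06 over all genes), and 7 and 0 under abemaciclib (0.12 against 0.04). Over all genes, 24.6% were higher and 13.1% lower under vehicle, and 18.6% and 11.3% under abemaciclib. After median-of-ratios rescaling the desmosome counts were 5 and 1, and 6 and 1. The plakin PPL had differences of 0.54 and 0.56 in those comparisons and plakophilin 2, PKP2, 0.29 and 0.44. JUP, plakoglobin, was higher by 0.23 under vehicle, and the desmosomal cadherin DSC2 by 0.34 under abemaciclib. With abemaciclib 5 were higher and 0 lower in knockout cells (median 0.04 against -0.07 over all genes), and 9 and 0 after median-of-ratios rescaling, with DSC2 at 0.45 and PPL at 0.36. In control cells 8 were higher and 2 lower (median 0.11 against -0.05), with DST, the plakin dystonin, at 0.46, DSP, desmoplakin, at 0.28, PKP2 at -0.27 and the cadherin DSG2 at -0.23 (-0.13 after quantile normalization). As deposited, the drug called 11% of all genes higher and 27.4% lower in knockout cells, and 19.6% and 31.1% in control cells. Rescaling also moved the calls over all genes, for the drug in knockout cells from 1780 higher and 4444 lower to 3225 and 2846. With knockout, 48.6% of all calls were higher after rescaling under vehicle and 47.8% under abemaciclib, in place of 65.3% and 62.2%.

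Among 15 genes for proteins that bind or clear keratins, knockout gave 5 higher and 4 lower under vehicle, and 5 and 0 under abemaciclib (2 and 4, and 5 and 1, after median-of-ratios rescaling). As deposited, the medians were 0.14 and 0.12, against 0.06 and 0.04 over all genes. Of all tested genes 24.6% were called higher and 13.1% lower under vehicle, and 18.6% and 11.3% under abemaciclib. After that rescaling 48.6% and 47.8% of all calls were higher, in place of 65.3% and 62.2%. SQSTM1, the autophagy receptor p62 that is found in keratin inclusions of liver cells, averaged 239 CPM in knockout and 173 CPM in control cells under abemaciclib and 208 CPM in knockout and 137 CPM in control cells under vehicle, differences of 0.46 and 0.60. The small heat shock protein gene HSPB1 was higher in knockout cells by 0.56 under vehicle and 0.26 under abemaciclib, and rose with abemaciclib by 0.45 in knockout and 0.75 in control cells. After quantile normalization the HSPB1 difference with knockout under abemaciclib was 0.13 and that with abemaciclib in knockout cells 0.25. With abemaciclib 2 were higher and 4 lower in knockout cells and 4 and 5 in control cells (4 and 3, and 5 and 5, after that rescaling). The counts as deposited were near the shares over all genes, 11% higher and 27.4% lower in knockout cells and 19.6% and 31.1% in control cells. After that rescaling 53.1% of all calls were higher in knockout and 51.1% in control cells, in place of 28.6% and 38.7%. SFN, the epithelial 14-3-3 sigma protein, fell by 0.86 in knockout and 1.05 in control cells. Of 9 tested genes of other intermediate filaments, LMNB1, a nuclear lamin of proliferating cells, decreased by 2.48 in knockout and 2.17 in control cells, and 6 of the 9 in knockout and 7 in control cells were lower with abemaciclib, where 27.4% and 31.1% of all genes were. Vimentin, VIM, the mesenchymal filament gene, averaged 16.6 CPM with abemaciclib and 13.5 CPM with vehicle in knockout cells (0.28, SE 0.0839, adjusted p = 0.00694), a call lost without knockout abemaciclib replicate 4 (adjusted p = 0.0515).

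Of 27 genes of epithelial adhesion and polarity, all tested, knockout gave 18 higher and 2 lower under vehicle, and 17 and 1 under abemaciclib, with medians of 0.19 and 0.16 against 0.06 and 0.04 over all genes. Of all tested genes 24.6% were called higher and 13.1% lower under vehicle, and 18.6% and 11.3% under abemaciclib. Abemaciclib gave 15 higher and 3 lower in knockout and 15 and 4 in control cells, with medians of 0.13 and 0.18 against -0.07 and -0.05, where 11% of all genes were higher and 27.4% lower in knockout cells and 19.6% and 31.1% in control cells. The mucin MUC1 was higher by 0.47 with knockout under vehicle, and by 0.43 in knockout and 0.73 in control cells with abemaciclib. Tight junction genes OCLN, 0.45 and 0.45, and CLDN4, 0.40 and 0.41, were higher with knockout under vehicle and abemaciclib. The epithelial splicing factor ESRP1 was lower in all 4, with differences of -0.27 and -0.23 with knockout and -0.44 and -0.48 with abemaciclib. After median-of-ratios rescaling the adhesion counts were 17 and 4, and 13 and 1 with knockout, and 20 and 1, and 19 and 2 with abemaciclib. The shares over all genes given above are as deposited. Over all genes, rescaling moved the calls for the drug in knockout cells from 1780 higher and 4444 lower to 3225 and 2846. In control cells it moved the share of calls that were higher from 38.7% to 51.1%, and with knockout from 65.3% and 62.2% to 48.6% and 47.8%.

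Epithelial transcription factors were called in both directions with knockout, and more were called higher than lower with the drug. Knockout gave 9 higher and 8 lower of 21 under vehicle, and 7 and 8 under abemaciclib (8 and 9, and 7 and 9, after median-of-ratios rescaling). The share of all genes as deposited was 24.6% higher and 13.1% lower under vehicle, and 18.6% and 11.3% under abemaciclib. After that rescaling 48.6% and 47.8% of all calls were higher, in place of 65.3% and 62.2%. ELF3, which acts in epithelial differentiation, was higher by 0.97 and 0.84, and TFAP2B by 1.70 and 1.53, or 0.79 and 0.77 with a pseudocount of 5. The estrogen receptor gene ESR1 was lower, with differences of -0.35 and -0.34, and the luminal factor GATA3 was lower by 0.31 under vehicle. Abemaciclib gave 9 higher and 1 lower in knockout cells and 12 and 2 in control cells, where 11% of all genes were higher and 27.4% lower in knockout cells and 19.6% and 31.1% in control cells. GRHL3 rose by 0.94 in knockout and 1.04 in control cells (0.71 and 0.66 with a pseudocount of 5), ELF3 by 0.58 and 0.71, and OVOL2 fell by 0.55 and 0.52. The plot of these lists by comparison shows each tested member.

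**Figure D5:**
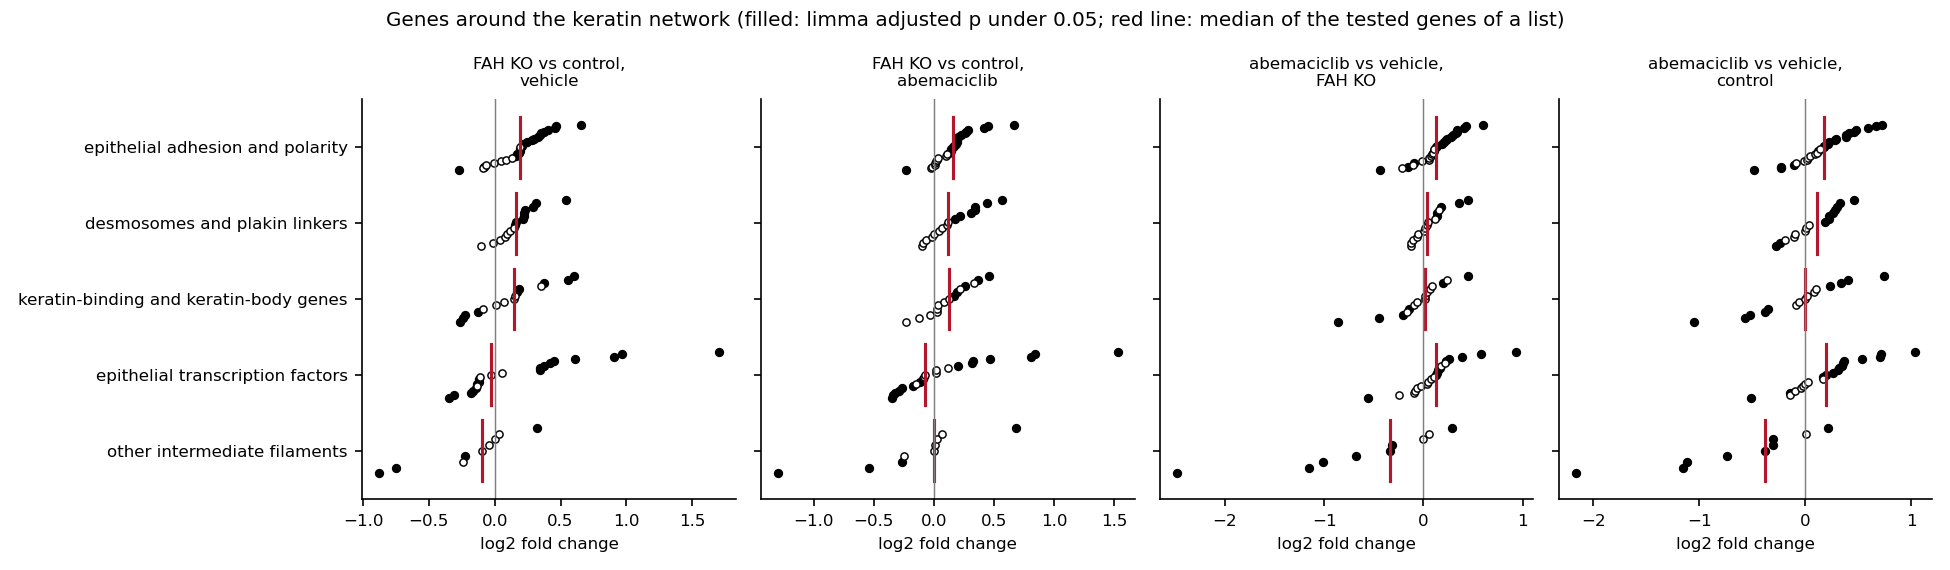
Difference in log2(CPM + 1) of each tested member of 5 lists of genes around the keratin network, in 4 comparisons, with filled points where the limma adjusted p was under 0.05 and a red line at the median of a list. Adhesion and desmosome genes lie mostly to the right of 0 in all 4 panels, and other intermediate filament genes mostly to the left in the 2 abemaciclib panels.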

How the data were processed

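RNA was sequenced from 16 T47D libraries. Per the labels' protocols, mRNA was reverse transcribed and libraries were made by tagmentation. The submitters' processing notes name STAR 2.7.11, SAMtools 1.22.1, featureCounts of Subread 2.1.1, MultiQC 1.32 and build GRCh38. The annotation release, the strand setting and the handling of reads with several matches are not stated in the sources used. The deposited table gives CPM (counts per 1000000 assigned reads) per gene, made by the authors, for 78986 rows. Here 92 spike-in rows were left out. Between 70.2% and 71.8% of the values above 0 per library were whole multiples of 1 read within 0.02 reads, too few for a count test. Libraries held an estimated 9915776 to 11963093 reads, whose number limits the precision of low genes to about 1 read.

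The 16218 genes at 1 CPM or more in 4 or more libraries were modelled as log2(CPM + 1) with limma 3.58.1 in R 4.3.3, empirical Bayes with trend, with 4 group means in 1 fit. Tests were two-sided and Benjamini-Hochberg adjusted over all 16218 genes, and genes were called at an adjusted p under 0.05. A fold change on this scale understates the change of low genes. Overlaps and 50-base windows come from GENCODE v29 on GRCh38, which may differ from the authors' annotation. The 10 members, the lists and the tests were chosen with earlier results of these data known. Named were all members, other keratins past the filter, up to 3 pseudogenes per keratin, FAH, from each list up to 4 called genes in the commoner direction and 2 in the other with at least 5 CPM, and the 3 nearest genes to members with a difference of at least 0.5. Alternatives were pseudocounts of 0.1 and 5, no filter, 2 scalings, no trend, a replicate block, added near copies and leaving out each library. Some items are not reported here.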

Additional observations from a re-analysis of the deposited data

Results flagged for a closer look

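In 2 of 44 tests of single libraries (the 10 keratins and FAH in 4 groups, Dixon's test at the 95% level), 1 library stood apart from the other 3 of its group. Chance flags about 1 in 20 groups. KRT7 was at 37.2 CPM in control vehicle replicate 2, with 38.3 to 38.5 CPM in the other 3 libraries, a gap of 0.874 of the range. KRT15 was at 72.6 CPM in control abemaciclib replicate 1, with 67.8 to 68.4 CPM in the other 3, a gap of 0.873 of the range. Without either library the calls of that gene did not change.

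The change with abemaciclib differed between knockout and control cells for 5 keratins by the interaction term of the limma fit. The differences, knockout minus control in log2, were -0.17 for KRT19, -0.31 for KRT7, -0.36 for KRT80, -0.42 for KRT15 and 0.27 for KRT10. The adjusted p-values were 0.00284, 0.00131, 2.2e-04, 2.0e-04 and 8.2e-05. The KRT19 call was lost after median-of-ratios rescaling (adjusted p = 0.0525) and without the mean-variance trend (adjusted p = 0.0744). Over all tested genes the interaction called 4.68% higher and 6.16% lower. Each of the 5 had the smaller change with abemaciclib in knockout cells.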

How the results depend on the processing

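Over 24 alternatives, the counts of keratins called higher were 5 under all for knockout under vehicle and 4 to 6 under abemaciclib, 7 to 8 for abemaciclib in knockout cells and 8 in control cells. Over 23 of the alternatives, knockout called 2818 to 4154 of all tested genes higher under vehicle and 2178 to 3068 under abemaciclib. Abemaciclib called 1466 to 3578 higher in knockout and 2845 to 4380 in control cells. Called lower, in the same order, were 1856 to 2979, 1462 to 2376, 2715 to 4617 and 3849 to 5190. More genes were tested where low genes were kept in. Knockout under vehicle had 2 keratins called lower in place of 1 after median-of-ratios rescaling and after quantile normalization, with KRT23 added. The interaction called 2 keratins higher in place of 1 without knockout vehicle replicate 2, with KRT18 added, so leaving out single libraries gave 1 to 2. It called 4 keratins lower as deposited and 3 to 5 over the alternatives. The sign turned for 3 differences of the keratins and FAH that were not called as deposited. KRT86 for knockout under vehicle was -0.00414 after quantile normalization and ranged from -0.10 to 0.23 without single libraries. The KRT8 interaction was -0.37 after quantile normalization, where it was called, and -0.0191 to 0.0312 without single libraries. The FAH interaction was 0.00334 with a pseudocount of 5, 0.0216 after quantile normalization and -0.116 to 0.00720 without single libraries. The cause was not tested. Over all genes, abemaciclib in knockout cells called 1780 higher and 4444 lower as deposited, 3225 and 2846 after rescaling and 3578 and 2715 after quantile normalization. The interaction called 759 higher and 999 lower, 494 and 578 with low genes kept in, and 491 higher without the trend.

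The labels do not say whether replicate numbers pair the samples, and no shared effect of the number was seen. Same-numbered libraries had correlations of deviations from -0.0367 to 0.0540, and in 5 of 16 checks a library correlated best with its own number. Such low correlations cannot exclude a pairing with a small effect. With the replicate block, the keratin counts were 5 higher and 1 lower, and 5 and 3, for knockout under vehicle and abemaciclib, 7 and 1, and 8 and 1, for abemaciclib in knockout and control cells, and 1 and 4 for the interaction, and no call of a keratin changed. For the knockout and drug comparisons, the counts over all genes with the block lie within the ranges given above. Depth limits KRT81, at single reads, and KRT86.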
